A study of Mus musculus with 14 samples.

Results

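Alveolar macrophages of the injured lung were compared by their surface level of MHC class II (MHCII), 2 weeks after bleomycin. The comparison took 6 of the 14 libraries of the study, 3 of MHCII-high and 3 of MHCII-low cells. Members were the genes that reached 10 normalized counts in 2 or more of these 6 libraries, which left 15451 of the 43432 genes of the deposited table. All 6 libraries came from the lungs of 129S1 males, 10 to 12 weeks old, that received bleomycin through the trachea (3 U/k, as the labels write it). Perfused lungs were digested with enzymes and cells were sorted as SiglecF+ CD11c+ and then as MHCII high or MHCII low. The same sort was made 4 weeks after bleomycin (3 libraries per level), and MHCII-low cells of mice given water served as controls (2 libraries). The labels do not say how many mice went into a library or whether replicates are separate mice. The p-values therefore measure the spread between libraries of a group, pooled over all 14 libraries, and this spread may be technical. None of the 14 libraries held MHCII-high cells of water-treated mice.

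Alveolar macrophages live in the airspace, where they clear surfactant and inhaled particles. SiglecF, a lectin that binds sialic acid, and CD11c, an integrin subunit encoded by Itgax, are used to gate them in the mouse. Bleomycin breaks DNA, and given into the airway it injures the epithelium and is followed by scarring. During such injury blood monocytes enter the airspace and become macrophages beside the resident cells. MHCII molecules are pairs of an alpha and a beta chain that carry peptides to the cell surface for CD4+ T cells. The invariant chain Cd74 holds the groove until peptide loading, which H2-DM catalyses and H2-O restrains. The coactivator Ciita switches on this gene set.

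MHCII-high libraries 1, 2 and 3 are called high 1, high 2 and high 3, and the MHCII-low ones low 1, low 2 and low 3 below. Values are given in this order. Both gate genes were abundant at both MHCII levels. Itgax had 36215, 33405 and 38615 normalized counts at high and 44133, 37356 and 39847 at low MHCII (log2 fold change -0.16 ± 0.15, adjusted p = 0.656). Siglecf had 3769, 3056 and 3733 normalized counts at high and 7231, 6471 and 6651 at low MHCII. The 3 MHCII-high values were all below the 3 MHCII-low values, and the difference passed the test (log2 fold change -0.95 ± 0.15, adjusted p = 0.000861). Here and below, a fold change is MHCII-high against MHCII-low on the log2(value + 1) scale, ± is its standard error, and the adjusted p is from limma over all 15451 genes, with 0.05 as the threshold.

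Recovered reads ranged from 47015830 to 79446483 at high and from 15770506 to 64622861 at low MHCII. Among these 6 libraries 1 read was worth 0.51 to 2.24 normalized counts, so values near 10 rest on few reads. Mitochondrial ribosomal RNA took 22.5% to 26.3% of reads in MHCII-high libraries and 3.42% to 18.3% in MHCII-low libraries, with no overlap. Below, the covariate means a fit with this share added, and its counts are given with the main gene groups. The first principal component of the 15451 genes held 38.8% of the variance and placed all MHCII-high libraries (28.1 to 106.1) apart from all MHCII-low libraries (-105.6 to -41.4). Spearman correlations across genes were 0.946 to 0.976 within and 0.921 to 0.957 between the levels.

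The comparison asks which transcripts go with a high surface level of MHCII during injury. At 2 weeks 508 genes differed between the levels, 3.29% of those tested. Of these, 403 genes (2.61% of all tested) were higher and 105 (0.68%) were lower in MHCII-high cells. Higher genes were 79.3% of the calls, but 68.3% when values were rescaled to library totals, 68.4% with limma voom and 89.8% with the covariate. The 3 libraries of each level did not overlap for 402 of the 403 higher and all 105 lower genes. Over all genes tested, such a gap was present for 13.7% in the higher and 8.92% in the lower direction. Size differed by direction. The median log2 fold change was 2.52 among higher (2.49 with genes at 0 in a whole group at their bound) and -0.87 among lower genes, against 0.06 over all genes tested. At least 2-fold differences were reached by 357 higher but 30 lower genes, and at least 4-fold ones by 252 higher genes and 1 lower gene. Higher genes were less abundant than lower genes, with a median mean log2(CPM + 1) of 3.37, against 6.97 for lower genes and 2.99 over all genes. All 105 lower genes and 350 of the 403 higher genes were protein coding. Of the calls, 133 higher and 20 lower genes kept their call whichever of the 6 libraries was left out. The count fell to 226 without high 1, to 204 without high 2 and to 235 without low 1. With the mitochondrial ribosomal RNA share as a covariate, 194 higher and 22 lower genes passed.

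**Figure D1:**
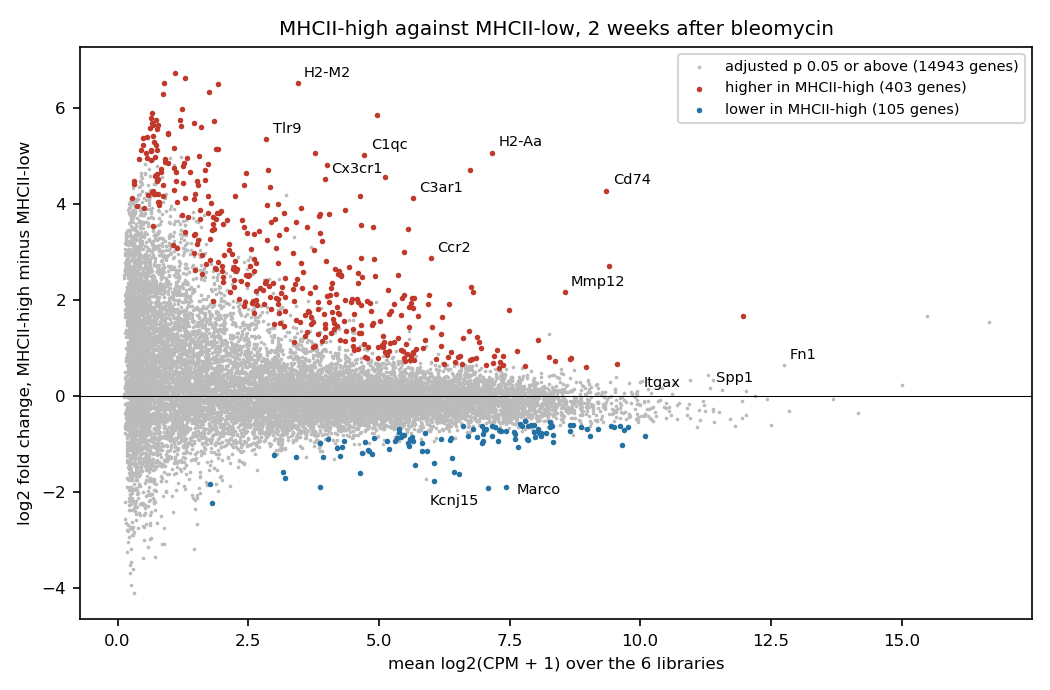
Log2 fold change (MHCII-high minus MHCII-low, 2 weeks) of each of the 15451 genes against its mean log2(CPM + 1) over the 6 libraries; red points are the 403 higher and blue points the 105 lower genes. Higher genes reach log2 fold changes above 6 and are spread over low and middle levels, while lower genes stay close to the zero line at middle and high levels.

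The MHCII genes themselves check the sort, since the gate selected for their protein. Of 17 tested genes of MHC class II presentation, 9 were higher and 0 were lower, with a list median of 1.16. The alpha chain gene H2-Aa (chr17:34282744-34287827 in the deposited table) had 27604, 29833 and 38503 normalized counts at high and 917, 503 and 1810 at low MHCII. That is a 33.6-fold difference (log2 fold change 5.07 ± 0.33, adjusted p = 1.58e-08), with the highest MHCII-low library far below the lowest MHCII-high library. Its partner H2-Ab1 (chr17:34263209-34269418) had 17713, 19140 and 25984 normalized counts at high and 897, 422 and 1276 at low MHCII (log2 fold change 4.72 ± 0.31, adjusted p = 1.58e-08). The beta chain gene H2-Eb1 (chr17:34305877-34316199) had 7599, 8016 and 8334 normalized counts at high and 143, 55.7 and 321 at low MHCII (log2 fold change 5.85 ± 0.69, adjusted p = 3.56e-05). Of the MHCII-low libraries, low 2 was the lowest and low 3 the highest for H2-Eb1 and H2-Aa. Cd74 had 94552, 99133 and 147040 normalized counts at high and 7247, 2916 and 8922 at low MHCII (log2 fold change 4.28 ± 0.34, adjusted p = 2.14e-07). Ciita, the coactivator, had 1972, 1822 and 1755 normalized counts at high and 96.2, 142 and 172 at low MHCII (log2 fold change 3.79 ± 0.33, adjusted p = 8.13e-07), and its MHCII-high libraries were within a narrow range of each other.

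The control MHCII-low cells had still less of these transcripts than MHCII-low cells after bleomycin. H2-Aa stood at 128 and 137 normalized counts in the 2 control libraries, Cd74 at 1013 and 1353 and Ciita at 38.6 and 52.5.

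The MHC class II promoters carry a shared module, in which an X box and a Y box bind the factors that Ciita docks on. The sequences before 3 of the higher MHCII genes are shown because they hold the Y box letters, alone or with the X box. H2-DMb1, also higher, held the X box letters alone and is not shown. Each run is the 140 bases before the RefSeq start on GRCm38.p6, 5′ to 3′, with the Y box CTGATTGG and matches to the X box consensus in capitals. The assembly is the reference strain, not 129S1.

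H2-Aa, chr17:34287824-34287963, minus strand: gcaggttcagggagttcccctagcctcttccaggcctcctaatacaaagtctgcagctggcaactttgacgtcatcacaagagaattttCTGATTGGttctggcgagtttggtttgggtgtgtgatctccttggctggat

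H2-Eb1, chr17:34305727-34305866, plus strand: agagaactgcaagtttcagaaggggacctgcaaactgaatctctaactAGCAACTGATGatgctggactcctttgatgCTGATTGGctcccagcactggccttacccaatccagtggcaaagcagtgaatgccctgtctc

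H2-Eb2, chr17:34325535-34325674, plus strand: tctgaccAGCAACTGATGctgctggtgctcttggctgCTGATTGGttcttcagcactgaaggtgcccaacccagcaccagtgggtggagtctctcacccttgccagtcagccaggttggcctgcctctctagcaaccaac

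H2-Eb1 and H2-Eb2 hold both boxes, and H2-Aa holds the Y box letters. Promoter sequences were matched for 13 of the 17 list genes. Both strands of the 250 bases before each start were searched. The Y box letters were present in 4 of the 13 genes (H2-Aa, H2-Eb1, H2-Eb2 and H2-Oa) and the X box in 3 (H2-Eb1, H2-Eb2 and H2-DMb1). For H2-DMa the searched windows ended at chr17:34122831 and chr17:34125517, well before its start in the deposited table (34135182). The bases just before that start were not searched. Of all 27025 genes of the table, which has 32851 promoters, 4.43% held the Y box letters in at least 1 promoter, 1.2% the X box and 0.037% both. Among the 273 higher genes with a promoter entry the shares were 4.03%, 1.83% and 1.1%, and the 3 with both were H2-Eb1, H2-Eb2 and Ttn. Among the 80 lower genes with an entry the shares were 5%, 0% and 0%. A match is a description of letters, not a test of binding.

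Less abundant members were higher as well. H2-Eb2 had 73.6, 50.8 and 68.6 normalized counts at high and 0, 0 and 1.1 at low MHCII (log2 fold change 5.66 ± 1.05, adjusted p = 0.00397), and the only MHCII-low library above 0 held 2 reads. H2-Ob, the beta chain of the H2-O restraint on loading, had 292, 330 and 175 normalized counts at high and 29.1, 0 and 3.9 at low MHCII (log2 fold change 5.61 ± 1.19, adjusted p = 0.0112). H2-Ob lost its call without high 1, high 2 or low 2 (adjusted p as high as 0.0681). Of the H2-DM chains, which load peptide, the beta genes passed and the alpha gene did not. H2-DMb1 had 4620, 6179 and 7038 normalized counts at high and 3461, 2850 and 3898 at low MHCII (log2 fold change 0.79 ± 0.20, adjusted p = 0.0335). H2-DMb2 had 1489, 1101 and 706 normalized counts at high and 430, 516 and 466 at low MHCII (log2 fold change 1.16 ± 0.28, adjusted p = 0.0235). H2-DMb1 lost its call without high 2, high 3, low 1 or low 2 (adjusted p as high as 0.142) and under 6 of the 14 other settings (as high as 0.176). H2-DMb2 lost it without high 1, high 2, low 1, low 2 or low 3 (adjusted p as high as 0.154) and under 3 of the 14 other settings (as high as 0.112). These 2 genes are close copies, so reads could be split between them. H2-DMa, the alpha chain, had 6994, 6627 and 9195 normalized counts at high and 7507, 6022 and 8651 at low MHCII and overlapped (log2 fold change 0.04 ± 0.20, adjusted p = 0.952). H2-Oa had a log2 fold change of 2.61 ± 0.94 (adjusted p = 0.15). The peptide-processing genes Ctss (0.24 ± 0.18), Lgmn (0.56 ± 0.19) and Ifi30 (0.04 ± 0.22) did not pass, nor did the X box factors Rfx5, Rfxap and Rfxank. Leaving out single libraries gave 6 to 8 higher genes of the list, fewest without high 2 or low 2, and the mitochondrial ribosomal RNA covariate gave 8.

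The H2 genes of class II lie in 1 block of chromosome 17, chr17:34092340-34340229, together with genes of the class I pathway. Of the 15 tested genes between H2-Oa and H2-Eb2, 7 were higher and 0 were lower. The class I peptide transporter and proteasome genes between them were not called. Tap1 had a log2 fold change of 0.20 ± 0.24, Tap2 of -0.19 ± 0.49, Psmb8 of -0.37 ± 0.25 and Psmb9 of -0.56 ± 0.24.

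MHC class I presentation as a list had 1 higher and 0 lower genes of 20 tested and a median of -0.08. The higher gene was Nlrc5, the coactivator of class I genes, with 650, 1484 and 559 normalized counts at high and 161, 237 and 353 at low MHCII (log2 fold change 1.77 ± 0.42, adjusted p = 0.0214). Nlrc5 lost its call without high 1, high 2, low 1 or low 2 (adjusted p as high as 0.167) and under 3 of the 14 other settings (as high as 0.133). B2m, the light chain of class I, had 39251, 36821 and 53264 normalized counts at high and 61482, 38714 and 39823 at low MHCII and overlapped (log2 fold change -0.10 ± 0.19, adjusted p = 0.861), and H2-D1 did too (log2 fold change -0.21 ± 0.19, adjusted p = 0.63). Where the mean log2(CPM + 1) was 3 or more, the largest fold change of a higher gene was that of H2-M2, a nonclassical class I gene on chromosome 17, with 3497, 1987 and 2723 normalized counts at high and 35.8, 17.5 and 35.2 at low MHCII (log2 fold change 6.52 ± 0.71, adjusted p = 1.61e-05). It was at 2.3 and 0.9 normalized counts in the controls.

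Of 18 tested genes of T cell costimulation and checkpoint, 3 were higher and 0 lower, with a median of 0.12. Cd86, a ligand of CD28, had 1292, 859 and 752 normalized counts at high and 246, 409 and 373 at low MHCII (log2 fold change 1.49 ± 0.35, adjusted p = 0.0206). Icosl, a ligand of ICOS, had 1364, 1162 and 1466 normalized counts at high and 658, 895 and 722 at low MHCII (log2 fold change 0.82 ± 0.21, adjusted p = 0.0363). Cd40 had 91.1, 40.1 and 52.1 normalized counts at high and 11.2, 1.6 and 0 at low MHCII (log2 fold change 4.21 ± 1.13, adjusted p = 0.0455). Between 0 and 2 genes of this list passed when single libraries were left out, and 0 with the covariate. Cd86 lost its call without high 1, high 2 or low 1 (adjusted p as high as 0.132) and under 2 of the 14 other settings (as high as 0.191). Icosl did so without high 1, high 2, high 3, low 1 or low 3 (adjusted p as high as 0.176) and under 6 of the 14 other settings (as high as 0.168) and Cd40 without high 1, high 2, high 3, low 2 or low 3 (adjusted p as high as 0.166) and under 6 of the 14 other settings (as high as 0.195). Cd80, the other CD28 ligand, had a log2 fold change of 0.09 ± 0.38.

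Complement genes split in direction. Of 22 tested, 6 were higher and 2 were lower at high MHCII, with a median of 0.16. C1q, the recognition molecule of the classical pathway, is built from 3 chains, and all 3 were higher. C1qa had 1847, 2017 and 3619 normalized counts at high and 53.7, 25.5 and 248 at low MHCII (log2 fold change 5.06 ± 0.82, adjusted p = 0.00113). C1qb had 5395, 5071 and 7713 normalized counts at high and 383, 100 and 418 at low MHCII (log2 fold change 4.55 ± 0.73, adjusted p = 0.000973). C1qc had 4056, 4773 and 6897 normalized counts at high and 166, 60.5 and 384 at low MHCII (log2 fold change 5.02 ± 0.56, adjusted p = 1.87e-05). For each chain low 2 was the lowest library and low 3 the highest of the MHCII-low ones. In the controls C1qc was at 11.3 and 12.9 normalized counts. C3ar1, the receptor for the C3a fragment, had 7333, 5892 and 10970 normalized counts at high and 439, 346 and 595 at low MHCII (log2 fold change 4.12 ± 0.30, adjusted p = 9.22e-08). Itgam, the CD11b chain of complement receptor CR3, had 9560, 7876 and 10139 normalized counts at high and 3271, 1336 and 1534 at low MHCII (log2 fold change 2.28 ± 0.31, adjusted p = 0.000173). These 5 calls held with each library left out and with the covariate.

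The 2 lower complement genes were C3 and C5ar1. C3, the central component, had 18633, 14479 and 21226 normalized counts at high and 30753, 26876 and 28858 at low MHCII (log2 fold change -0.69 ± 0.16, adjusted p = 0.0226). C3 lost its call without high 1, high 2, low 1 or low 3 (adjusted p as high as 0.165) and with the covariate (adjusted p = 0.223). C5ar1, the receptor for C5a, had 8776, 6392 and 9506 normalized counts at high and 14644, 13588 and 13273 at low MHCII (log2 fold change -0.77 ± 0.15, adjusted p = 0.00557). C5ar1 lost its call without high 2 (adjusted p = 0.0555). In the controls C5ar1 stood at 18114 and 17802, above both groups of 2 weeks, while C3 stood at 15134 and 14567, nearer to the MHCII-high group.

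**Figure D2:**
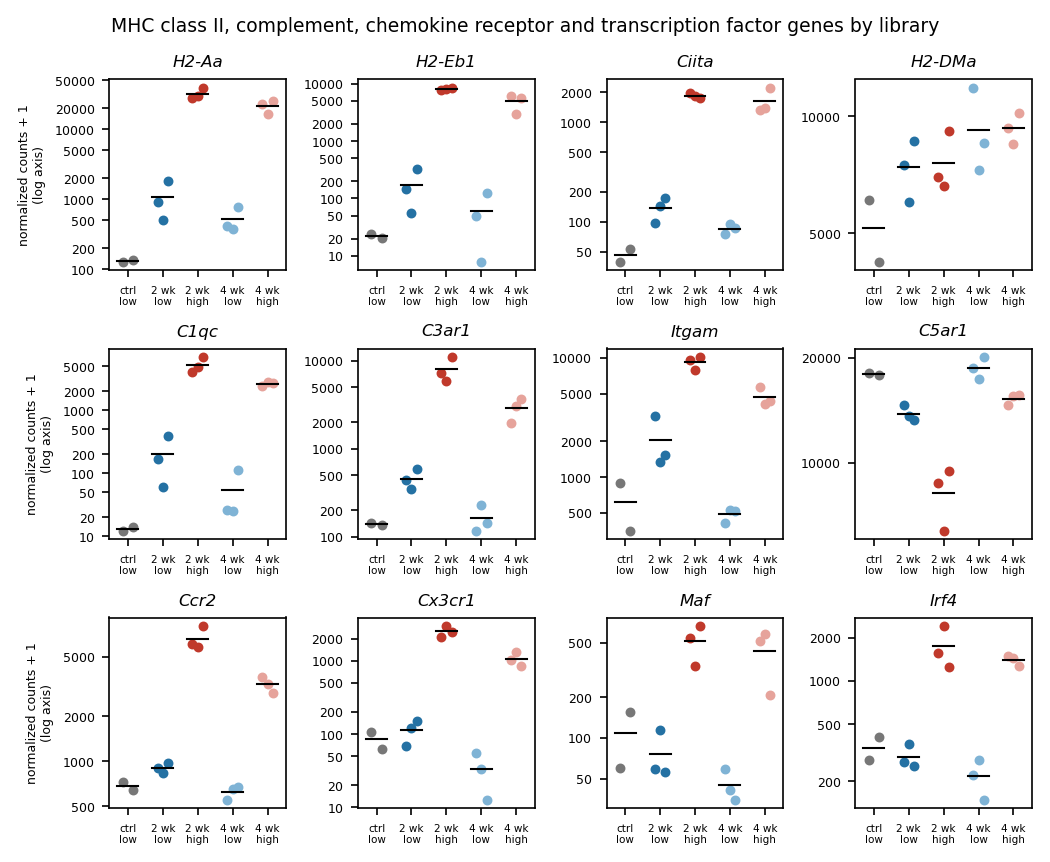
Normalized counts + 1 (log axis) of 12 genes in each library of the 5 groups, with a bar at each group mean; panels have their own scales. H2-Aa, H2-Eb1, Ciita, C1qc, C3ar1, Ccr2, Cx3cr1 and Irf4 show the 2-week MHCII-high libraries (red) far above the MHCII-low libraries (blue), H2-DMa overlaps, and C5ar1 runs the other way.

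Of 14 tested chemokine receptors, 7 were higher and 0 lower, with a median of 1.43. Ccr2, which draws monocytes out of the marrow and into tissue, had 6046, 5789 and 8004 normalized counts at high and 893, 834 and 963 at low MHCII (log2 fold change 2.87 ± 0.18, adjusted p = 1.58e-08). Cx3cr1, the fractalkine receptor, had 2093, 2954 and 2478 normalized counts at high and 67.1, 121 and 150 at low MHCII (log2 fold change 4.53 ± 0.47, adjusted p = 1.04e-05). Cmklr1, the receptor for chemerin, had 2898, 2961 and 2436 normalized counts at high and 67.1, 58.9 and 227 at low MHCII (log2 fold change 4.82 ± 0.63, adjusted p = 0.000116). All 3 calls held with each library left out. Ccr7, Ccr9 and Ccrl2 were also higher, and each lost its call without 3 or more of the 6 libraries in turn. Ccr7 did so without high 1, low 2 or low 3 (adjusted p as high as 0.0845) and with the covariate (adjusted p = 0.0696). Ccr9 did so without any 1 library (adjusted p as high as 0.088) and under 3 of the 14 other settings (as high as 0.0931) and Ccrl2 without high 1, high 2, low 1, low 2 or low 3 (adjusted p as high as 0.194) and under 4 of the 14 other settings (as high as 0.124). With the mitochondrial ribosomal RNA covariate 3 receptors passed. Cxcr4 (0.14 ± 0.19) and Ccr1 (0.09 ± 0.24) were not called.

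Of 24 tested chemokine ligands, 8 were higher and 0 lower, with a median of 1.77. Ccl22, a ligand of CCR4, had 4454, 2942 and 3783 normalized counts at high and 365, 385 and 235 at low MHCII (log2 fold change 3.51 ± 0.59, adjusted p = 0.00158). Ccl17, the other CCR4 ligand, had 192, 145 and 250 normalized counts at high and 0, 6.4 and 0 at low MHCII (log2 fold change 6.62 ± 1.00, adjusted p = 0.00056), so its MHCII-low level rests on 4 reads in 1 library. Cxcl16, the ligand of CXCR6, had 3264, 2983 and 2542 normalized counts at high and 651, 459 and 832 at low MHCII (log2 fold change 2.21 ± 0.28, adjusted p = 6.64e-05). Cxcl15, known from lung epithelium, had 1381, 1511 and 785 normalized counts at high and 421, 191 and 264 at low MHCII (log2 fold change 2.08 ± 0.39, adjusted p = 0.00401). These 4 held with each library left out. Ccl2, Ccl5, Ccl9 and Cxcl13 were also higher, with log2 fold changes of 3.81, 4.25, 1.29 and 4.86. Ccl2 lost its call without high 2 or low 1 (adjusted p as high as 0.0605). Ccl5 did so without high 1, high 2, high 3, low 1 or low 3 (adjusted p as high as 0.0851) and under 3 of the 14 other settings (as high as 0.112), Ccl9 without high 1, high 2, high 3, low 2 or low 3 (adjusted p as high as 0.102) and under 3 of the 14 other settings (as high as 0.168). Cxcl13 did so without high 1, high 2 or low 1 (adjusted p as high as 0.12) and under 3 of the 14 other settings (as high as 0.124). The covariate fit left 5 ligands.

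Of 27 tested marker genes of monocyte-derived or interstitial macrophages, 12 were higher and 0 lower, with a median of 2.10. Of this list, 10 to 13 were higher with single libraries left out and 10 with the covariate. Beside Ccr2, Cx3cr1 and Itgam they included the paired membrane genes Tmem176a and Tmem176b. Tmem176a had 820, 553 and 522 normalized counts at high and 40.3, 20.7 and 27.0 at low MHCII (log2 fold change 4.40 ± 0.49, adjusted p = 1.87e-05). Tmem176b had 818, 708 and 1010 normalized counts at high and 87.3, 28.7 and 55.6 at low MHCII (log2 fold change 3.98 ± 0.57, adjusted p = 0.000293). Ms4a7, a membrane protein of monocyte-derived macrophages, had 650, 710 and 920 normalized counts at high and 139, 123 and 243 at low MHCII (log2 fold change 2.22 ± 0.38, adjusted p = 0.00196). Apoe, a lipid carrier made by such cells, had 4823, 5185 and 7878 normalized counts at high and 539, 229 and 1140 at low MHCII (log2 fold change 3.48 ± 0.70, adjusted p = 0.00736). Apoe lost its call without low 2 (adjusted p = 0.0504). The adhesion and scavenger receptor Stab1 had 698, 308 and 544 normalized counts at high and 15.7, 55.7 and 59.5 at low MHCII (log2 fold change 3.67 ± 0.78, adjusted p = 0.0107). Stab1 lost its call without high 1 or low 1 (adjusted p as high as 0.0752) and with the covariate (adjusted p = 0.11). Ms4a4c (log2 fold change 5.12 ± 1.07, adjusted p = 0.00973), a relative of Ms4a7, lost its call without high 1 or low 1 (adjusted p as high as 0.0587) and under 2 of the 14 other settings (as high as 0.0727). The colony-stimulating factor receptor Csf1r (0.29 ± 0.16) and the apoptotic cell receptor Mertk (-0.34 ± 0.16) were not called. F13a1 and Cd163 had groups that did not overlap but were not called, with 3.11 ± 0.96 (adjusted p = 0.0826) and 3.05 ± 1.03 (adjusted p = 0.115).

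Of 23 tested genes of resident alveolar macrophages, 11 were lower and 0 higher, with a median of -0.61. The scavenger receptor Marco had 2782, 3198 and 4567 normalized counts at high and 18859, 10438 and 11013 at low MHCII (log2 fold change -1.91 ± 0.22, adjusted p = 2.36e-05). The keratin Krt19 had 1879, 1985 and 1838 normalized counts at high and 6616, 4500 and 6344 at low MHCII (log2 fold change -1.59 ± 0.20, adjusted p = 6.09e-05). Krt79 had 1525, 1469 and 1681 normalized counts at high and 4875, 3139 and 4500 at low MHCII (log2 fold change -1.40 ± 0.20, adjusted p = 0.00026). The lipid droplet protein Cidec had 1894, 1706 and 2470 normalized counts at high and 7370, 5596 and 5746 at low MHCII (log2 fold change -1.63 ± 0.23, adjusted p = 0.000318). Fabp1, a fatty acid-binding protein, had 216, 145 and 158 normalized counts at high and 891, 412 and 474 at low MHCII (log2 fold change -1.71 ± 0.30, adjusted p = 0.00248). For all 5 genes the MHCII-high libraries lay below every MHCII-low library, and the calls held with each library left out. The other lower genes were Siglecf, Ear1, Serpinb1a, Plet1, Car4 and Ctsk, from -1.15 for Ear1 to -0.61 for Ctsk. Ear1 lost its call with the covariate (adjusted p = 0.0696). Serpinb1a lost its call without high 1 or high 2 (adjusted p as high as 0.0627). Plet1 did so without high 2 (adjusted p = 0.0681) and with the covariate (adjusted p = 0.0739), Car4 without high 1, high 2, low 1, low 2 or low 3 (adjusted p as high as 0.198) and under 4 of the 14 other settings (as high as 0.16). Ctsk did so without high 1, high 2, high 3, low 1 or low 3 (adjusted p as high as 0.255) and under 4 of the 14 other settings (as high as 0.294). Leaving out single libraries gave 7 to 11 lower genes, and the covariate gave 7. DESeq2 gave 16.

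The 2 most abundant resident genes did not pass. Chil3, a chitinase-like protein, had 167982, 165183 and 219200 normalized counts at high and 303547, 251121 and 279985 at low MHCII (log2 fold change -0.60 ± 0.21, adjusted p = 0.123), with separate groups. Mrc1, the mannose receptor, had 84662, 87127 and 89069 normalized counts at high and 128842, 152537 and 104987 at low MHCII (log2 fold change -0.55 ± 0.18, adjusted p = 0.0972). Pparg, the nuclear receptor that sets the resident program, had 5547, 5570 and 5940 normalized counts at high and 8637, 7416 and 7962 at low MHCII (log2 fold change -0.49 ± 0.14, adjusted p = 0.0616). The fatty acid-binding proteins Fabp4 (0.51 ± 0.39) and Fabp5 (0.61 ± 0.31) had positive values and were not called. In bulk libraries, fewer cells of a type and less RNA per cell cannot be told apart, and this holds for every list here.

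Of 30 macrophage transcription factors, 4 were higher and 1 was lower, with a median of 0.04. Maf had 543, 336 and 663 normalized counts at high and 58.2, 113 and 55.6 at low MHCII (log2 fold change 2.77 ± 0.53, adjusted p = 0.00463). Irf4, known from dendritic cells and alternatively activated macrophages, had 1568, 2410 and 1247 normalized counts at high and 271, 360 and 256 at low MHCII (log2 fold change 2.52 ± 0.30, adjusted p = 3.57e-05). Runx3 had 179, 410 and 264 normalized counts at high and 42.5, 12.7 and 18.2 at low MHCII (log2 fold change 3.58 ± 0.90, adjusted p = 0.0323). Runx3 lost its call without any 1 library (adjusted p as high as 0.16) and under 4 of the 14 other settings (as high as 0.0784). Egr2, the lower gene, had 7656, 8298 and 6598 normalized counts at high and 11277, 11255 and 11910 at low MHCII (log2 fold change -0.62 ± 0.15, adjusted p = 0.0223). Egr2 lost its call without high 1, high 3, low 1, low 2 or low 3 (adjusted p as high as 0.093) and under 2 of the 14 other settings (as high as 0.211). The macrophage factors Spi1 (-0.52 ± 0.18), Cebpa (-0.68 ± 0.20) and Cebpb (-0.64 ± 0.31) had negative values that did not pass. Among immediate early genes, 3 of 21 were higher and 1 was lower. Nr4a3, an orphan nuclear receptor, had 785, 918 and 725 normalized counts at high and 184, 161 and 135 at low MHCII (log2 fold change 2.34 ± 0.34, adjusted p = 0.000312) and held with each library left out. Fosb (log2 fold change 1.43 ± 0.36, adjusted p = 0.0302) lost its call without high 1, high 2, low 1, low 2 or low 3 (adjusted p as high as 0.182) and under 3 of the 14 other settings (as high as 0.0977). Btg2 (log2 fold change 0.81 ± 0.21, adjusted p = 0.0371) did so without high 1, high 2, low 1 or low 2 (adjusted p as high as 0.225) and under 6 of the 14 other settings (as high as 0.251).

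Of 15 tested metalloproteinase and inhibitor genes, 4 were higher and 0 lower, with a median of 0.43. The macrophage elastase Mmp12 had 31119, 29129 and 32295 normalized counts at high and 9596, 5917 and 5680 at low MHCII (log2 fold change 2.17 ± 0.29, adjusted p = 0.00017). The membrane-bound collagenase Mmp14 had 3230, 2738 and 3484 normalized counts at high and 201, 264 and 351 at low MHCII (log2 fold change 3.56 ± 0.41, adjusted p = 2.36e-05). Adam8, a membrane sheddase, had 1337, 959 and 752 normalized counts at high and 204, 129 and 167 at low MHCII (log2 fold change 2.59 ± 0.43, adjusted p = 0.00145). These 3 held with each library left out and with the covariate. Timp2, an inhibitor that also helps MMP14 activate MMP2, had 14029, 17049 and 18084 normalized counts at high and 11348, 8954 and 9619 at low MHCII (log2 fold change 0.72 ± 0.18, adjusted p = 0.0342). Timp2 lost its call without any 1 library (adjusted p as high as 0.144) and under 4 of the 14 other settings (as high as 0.149).

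The list of lipid-associated or profibrotic macrophage genes had 6 higher and 0 lower of 24 tested, with a median of 0.36. They were Mmp12, Mmp14, Timp2, Apoe, Igf1 and Arg1. Igf1, a growth factor for fibroblasts and epithelium, had 9884, 9341 and 12806 normalized counts at high and 5652, 5651 and 5335 at low MHCII (log2 fold change 0.93 ± 0.19, adjusted p = 0.00973). Igf1 lost its call without high 3 (adjusted p = 0.0532) and with the covariate (adjusted p = 0.0875). Arg1, which breaks down arginine, had 191, 519 and 358 normalized counts at high and 29.1, 68.5 and 63.3 at low MHCII (log2 fold change 2.69 ± 0.70, adjusted p = 0.0379). Arg1 lost its call without any 1 library (adjusted p as high as 0.196) and under 4 of the 14 other settings (as high as 0.259). The genes most used to name these macrophages did not pass. Spp1, which encodes osteopontin, had 92775, 103351 and 123220 normalized counts at high and 105620, 79824 and 101920 at low MHCII and overlapped (log2 fold change 0.15 ± 0.22, adjusted p = 0.8). Gpnmb, a membrane glycoprotein, had 88587, 68195 and 78522 normalized counts at high and 113845, 81060 and 93319 at low MHCII and overlapped (log2 fold change -0.29 ± 0.17, adjusted p = 0.413). Trem2, a lipid-sensing receptor, overlapped as well (log2 fold change 0.11 ± 0.20, adjusted p = 0.853). Fn1, fibronectin, had 290029, 320203 and 393129 normalized counts at high and 196439, 201037 and 242793 at low MHCII, with separate groups but no call (log2 fold change 0.64 ± 0.22, adjusted p = 0.115). Of 18 growth factor genes, 2 were higher, Igf1 and Hgf, and 0 were lower. Hgf had 2191, 2380 and 2209 normalized counts at high and 985, 1600 and 1020 at low MHCII (log2 fold change 0.95 ± 0.21, adjusted p = 0.0158). Hgf lost its call without high 1, high 2, low 1 or low 3 (adjusted p as high as 0.103) and under 3 of the 14 other settings (as high as 0.135). Tgfb1 had a log2 fold change of -0.39 ± 0.19. Leaving out single libraries gave 3 to 4 higher genes of the lipid-associated list, fewest without high 3 or low 2, and the covariate gave 3. Genes of this list were also called lower by some alternatives. DESeq2 gave 8 higher and 3 lower genes, voom 7 and 3, the GC trend 5 and 2, the replicate block 7 and 1, and TMM scaling 5 and 1, and 1 was lower without low 2.

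**Figure D3:**
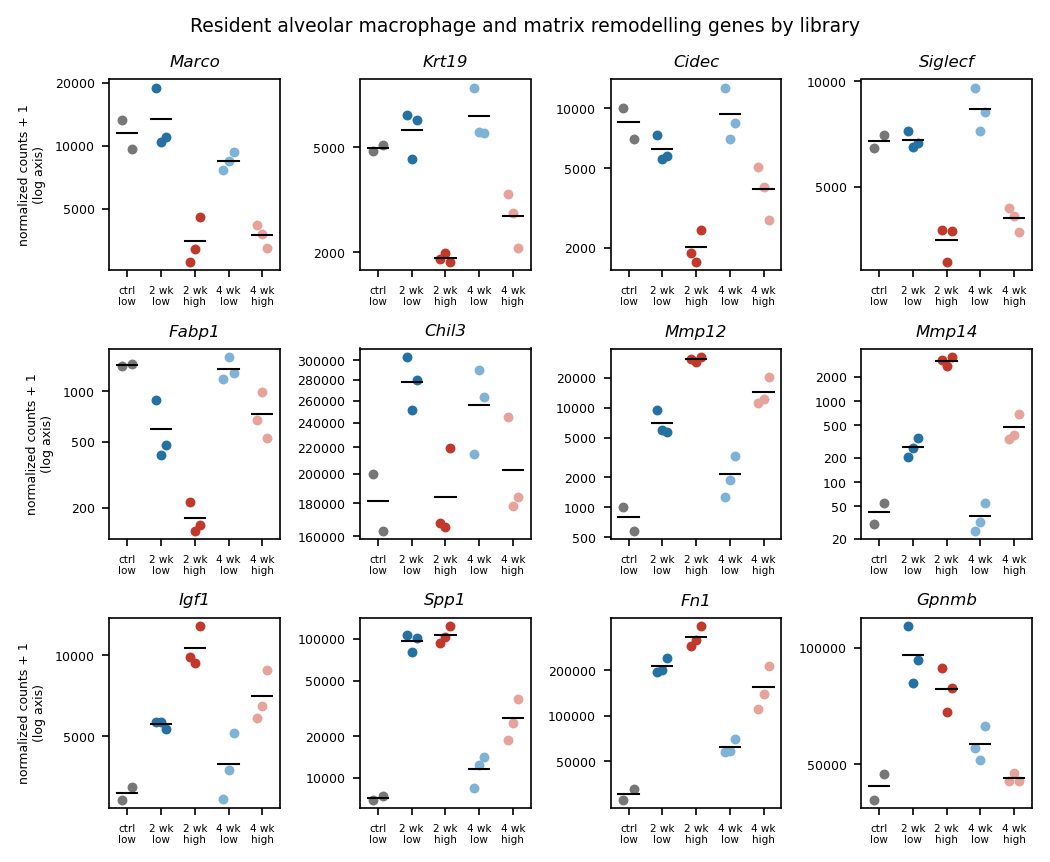
Normalized counts + 1 (log axis) of 6 resident alveolar macrophage genes and 6 matrix or profibrotic genes in each library of the 5 groups, with a bar at each group mean; panels have their own scales. Marco, Krt19, Cidec, Siglecf and Fabp1 are lower and Mmp12, Mmp14 and Igf1 higher in every 2-week MHCII-high library, while Spp1 and Gpnmb overlap.

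Of 8 Fc receptor genes, 2 were higher and 1 was lower, with a median of 0.12. The inhibitory receptor Fcgr2b had 11936, 11629 and 15295 normalized counts at high and 3571, 3344 and 4287 at low MHCII (log2 fold change 1.79 ± 0.21, adjusted p = 4.15e-05). The Fc receptor-like gene Fcrls had 391, 455 and 447 normalized counts at high and 2.2, 0 and 31.9 at low MHCII (log2 fold change 6.51 ± 1.05, adjusted p = 0.00113). Fcgrt, the neonatal Fc receptor, had 3271, 3126 and 3631 normalized counts at high and 5775, 4626 and 5979 at low MHCII (log2 fold change -0.70 ± 0.16, adjusted p = 0.017). Fcgrt lost its call without high 1, high 2, low 1 or low 3 (adjusted p as high as 0.0952) and with the covariate (adjusted p = 0.176). The activating receptors Fcgr3 (-0.16 ± 0.18) and Fcer1g (-0.38 ± 0.18) were not called.

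Of 20 Toll-like receptor genes, 2 were higher and 0 lower, with a median of -0.03. Tlr9, the endosomal sensor of CpG DNA, had 999, 1210 and 1116 normalized counts at high and 40.3, 8 and 51.8 at low MHCII (log2 fold change 5.36 ± 0.74, adjusted p = 0.000207). Tlr11, a sensor of profilin, had 91.1, 48.3 and 47.8 normalized counts at high and 0, 0 and 0.6 at low MHCII (log2 fold change 5.69 ± 0.98, adjusted p = 0.00188), with MHCII-low values that rest on 1 read at most. Both held with each library left out. Tlr2 (-0.10 ± 0.19) and Tlr4 (-0.01 ± 0.18) were not called.

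Scavenger and mannose receptors had 2 higher and 1 lower of 12 tested, and a median of -0.33. Beside Stab1 and Marco, the collectin Colec12 had 3288, 3040 and 3604 normalized counts at high and 1018, 653 and 779 at low MHCII (log2 fold change 2.04 ± 0.38, adjusted p = 0.00401). C-type lectins had 2 higher and 0 lower of 17. Clec4a1 had 312, 461 and 279 normalized counts at high and 76.1, 31.8 and 32.5 at low MHCII (log2 fold change 2.97 ± 0.57, adjusted p = 0.00473). Mgl2, a lectin for galactose, had 331, 288 and 222 normalized counts at high and 44.7, 1.6 and 6.6 at low MHCII (log2 fold change 4.84 ± 1.08, adjusted p = 0.0146). Mgl2 lost its call without high 1, high 2 or low 2 (adjusted p as high as 0.0798). Of 11 tested Tmem176 and Ms4a genes, 5 were higher and 1, Ms4a8a (-0.94), was lower. Ms4a8a lost its call without high 1, high 2, low 1 or low 3 (adjusted p as high as 0.0986) and with the covariate (adjusted p = 0.0855). Among 15 genes of apoptotic cell uptake, Timd4, a receptor for phosphatidylserine, and Stab1 were higher and 0 were lower. Timd4 had 171, 68.8 and 200 normalized counts at high and 42.5, 1.6 and 0 at low MHCII (log2 fold change 4.79 ± 1.18, adjusted p = 0.0271). Timd4 lost its call without high 1, high 2, high 3, low 2 or low 3 (adjusted p as high as 0.116) and under 2 of the 14 other settings (as high as 0.16).

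Of 23 genes of cholesterol synthesis and uptake, 0 were called, and 22 had negative values, with a median of -0.29. Over all genes tested, 54.5% had values above 0. With the 6 libraries alone or without MHCII-high replicate 3 of 4 weeks 1 gene was lower. Sqle, an early sterol enzyme, had 5788, 7666 and 8539 normalized counts at high and 9431, 8809 and 10532 at low MHCII (log2 fold change -0.40 ± 0.20, adjusted p = 0.311), and Hmgcs1 overlapped (log2 fold change -0.15 ± 0.21, adjusted p = 0.786). Fatty acid synthesis and storage had 1 lower gene, Cidec, of 19, and fatty acid oxidation and PPAR targets had 1 lower gene of 18. That gene, Hadha of mitochondrial beta oxidation, had 9054, 9589 and 11122 normalized counts at high and 15438, 13823 and 16515 at low MHCII (log2 fold change -0.62 ± 0.14, adjusted p = 0.0183). Hadha lost its call without high 1, high 2, low 1 or low 3 (adjusted p as high as 0.109) and with the covariate (adjusted p = 0.182). Abca1, the cholesterol exporter, was higher with 5141, 5295 and 6135 normalized counts at high and 3457, 3470 and 2782 at low MHCII (log2 fold change 0.77 ± 0.17, adjusted p = 0.0138). Abca1 lost its call without high 2, high 3 or low 3 (adjusted p as high as 0.0604) and under 1 of the 14 other settings (as high as 0.115).

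Of integrin subunits, Itgam and Itga4 were higher and 0 lower, of 18 tested. Itga4, a subunit of the VCAM1 receptor, had 20499, 18971 and 21540 normalized counts at high and 11682, 14153 and 10227 at low MHCII (log2 fold change 0.77 ± 0.18, adjusted p = 0.0212). Itga4 lost its call without high 1, high 2, high 3, low 1 or low 3 (adjusted p as high as 0.087) and with the covariate (adjusted p = 0.259). Of 15 cathepsins, Ctse was higher with 3064, 2554 and 3146 normalized counts at high and 1593, 565 and 815 at low MHCII (log2 fold change 1.69 ± 0.30, adjusted p = 0.00241), and Ctsk was lower. Ctse held with each library left out. Of 15 genes of alternative activation, Arg1, Ccl17 and Ccl22 were higher and 0 lower, while Mrc1 and Chil3 belong to the same list. Of 17 leukotriene and prostaglandin genes, Hpgd (log2 fold change 1.21 ± 0.27, adjusted p = 0.0149), which breaks down prostaglandins, and the leukotriene receptor Cysltr1 (log2 fold change 1.32 ± 0.35, adjusted p = 0.0396) were higher and 0 lower. Hpgd lost its call without high 1, high 3 or low 1 (adjusted p as high as 0.0811) and under 3 of the 14 other settings (as high as 0.0881). Cysltr1 did so without any 1 library (adjusted p as high as 0.121) and under 5 of the 14 other settings (as high as 0.269). Over the 20 alternatives 0 to 5 genes of apoptotic cell uptake, 1 to 4 Toll-like receptors, 1 to 4 integrins, 0 to 4 class I genes and 1 to 6 immediate early genes were higher. DESeq2 called 3 transcription factors, 2 genes of alternative activation and 3 of fatty acid oxidation lower.

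For several programs 0 genes passed in the limma fit of all 14 libraries. They were type I interferon-stimulated genes (0 of 27), interferon-gamma-inducible genes (0 of 13), inflammatory cytokines and inflammasome (0 of 17), cell cycle (0 of 25), and GM-CSF and M-CSF signalling (0 of 13). Their medians were 0.42, 0.06, 0.02, 0.10 and -0.06. In the interferon list Ifi44 had 945, 756 and 1391 normalized counts at high and 277, 288 and 276 at low MHCII (log2 fold change 1.83 ± 0.51, adjusted p = 0.0582). The proliferation marker Mki67 had 4883, 7976 and 11072 normalized counts at high and 5162, 7145 and 6196 at low MHCII and overlapped (log2 fold change 0.31 ± 0.27, adjusted p = 0.639). The GM-CSF receptor chains Csf2ra (-0.34 ± 0.19) and Csf2rb (-0.25 ± 0.15) were not called. Glycolysis, NRF2 antioxidant, iron handling, and heat shock genes also had 0 calls among 21, 15, 14 and 16 tested. Over these 9 lists and cholesterol synthesis, 40 of 184 entries (21.7%) had an unadjusted p under 0.05, against 16.7% of all genes tested. DESeq2 called 3 interferon-stimulated genes and edgeR 1, all higher, and DESeq2 called 1 gene of the inflammatory, 1 of the glycolysis, 2 of the NRF2, 3 of the iron and 1 of the heat shock list. Limma voom called 2 interferon-stimulated genes, 1 NRF2 gene and 1 iron gene. Some alternatives of limma also gave calls. Higher interferon-stimulated genes numbered 3 with the 6 libraries alone or without MHCII-high replicate 3 of 4 weeks, 2 with a pseudocount of 5 or the replicate block, and 1 with a filter of 5 CPM. Higher iron genes numbered 2 with the 6 libraries alone, and 1 with the covariate or without MHCII-high replicate 3 of 4 weeks. In the NRF2 list 1 gene was lower without high 3, low 2 or low 3, 1 was higher with the 6 libraries alone, and the replicate block gave 1 each way. In the heat shock list 1 gene was lower without low 3. In the p53 list Trp53inp1 was higher (log2 fold change 1.00 ± 0.22, adjusted p = 0.0143) and Cdkn1a, the cell cycle inhibitor p21, was lower with 6123, 6268 and 6817 normalized counts at high and 16785, 12110 and 8452 at low MHCII (log2 fold change -0.90 ± 0.20, adjusted p = 0.0143). Cdkn1a lost its call without high 1, high 2 or low 1 (adjusted p as high as 0.103) and with the covariate (adjusted p = 0.194). Trp53inp1 did so without high 1, high 2 or low 1 (adjusted p as high as 0.103) and with the covariate (adjusted p = 0.201).

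**Figure D4:**
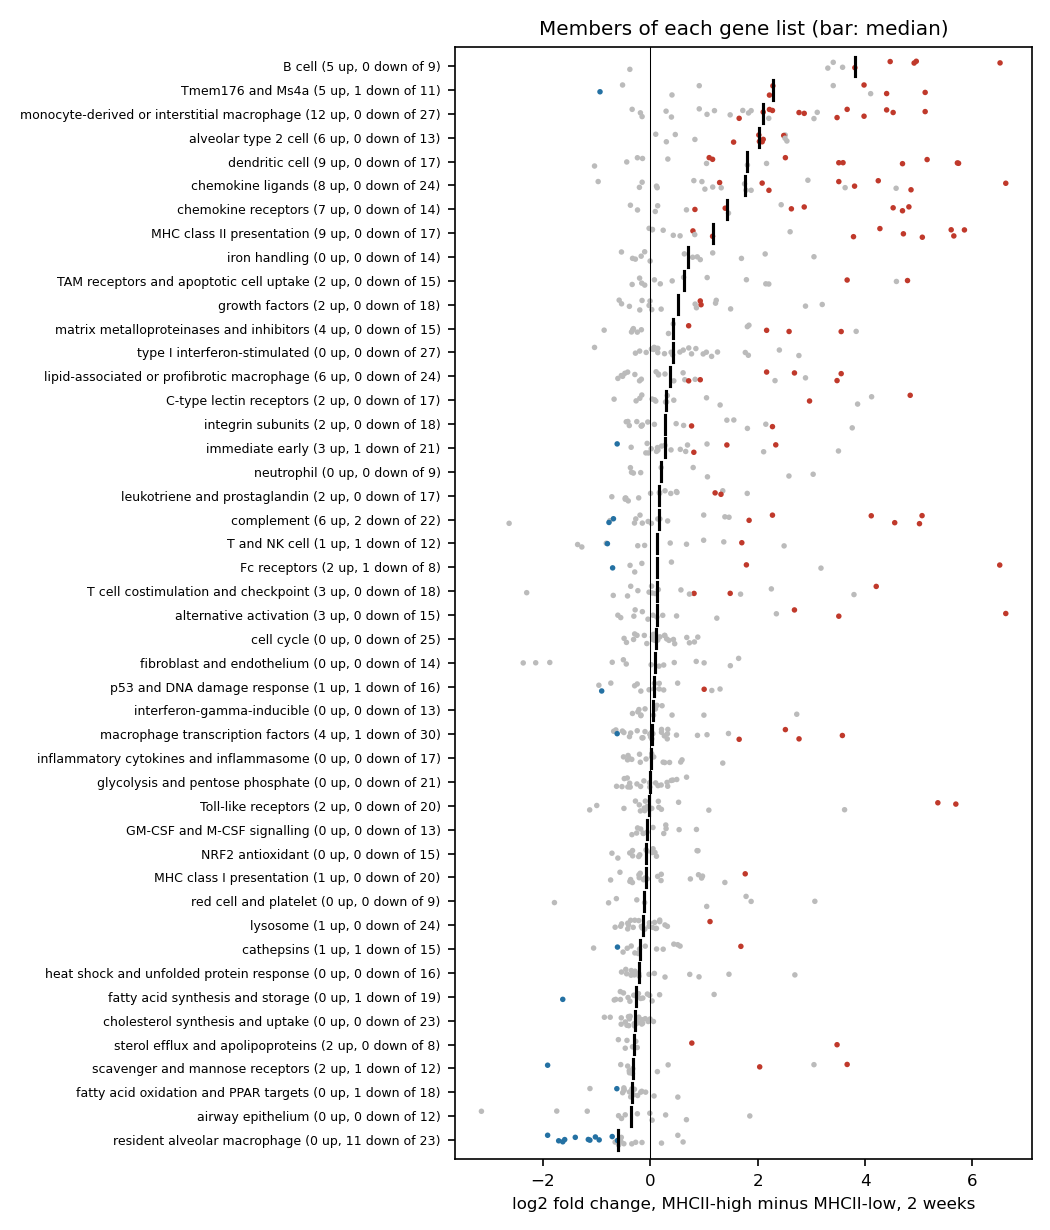
Log2 fold change (MHCII-high minus MHCII-low, 2 weeks) of every tested member of each list with at least 8 tested genes, with a black bar at the list median; red points are higher, blue points lower and grey points not called. B cell, Tmem176 and Ms4a, and monocyte-derived genes have the highest medians, and resident alveolar macrophage genes the lowest. The B cell median includes genes that passed the filter through MHCII-high libraries alone.

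Of the 15 higher genes with the largest fold changes where the mean log2(CPM + 1) reached 3, 10 belong to the MHCII, complement or chemokine receptor lists. H2-M2 is given above, and the other 4 were Rasgrp1, Dhrs9, Cadm1 and Plbd1. Rasgrp1, an activator of Ras, had 3256, 4951 and 3295 normalized counts at high and 224, 202 and 196 at low MHCII (log2 fold change 4.18 ± 0.37, adjusted p = 8.13e-07). Dhrs9, a retinol dehydrogenase family member, had 1049, 867 and 1118 normalized counts at high and 31.3, 81.2 and 91.4 at low MHCII (log2 fold change 4.01 ± 0.65, adjusted p = 0.00114). The adhesion molecule Cadm1 had 1562, 1716 and 1087 normalized counts at high and 69.4, 87.6 and 136 at low MHCII (log2 fold change 3.91 ± 0.61, adjusted p = 0.000732). Plbd1 had 3050, 2932 and 2205 normalized counts at high and 374, 94.0 and 178 at low MHCII (log2 fold change 3.87 ± 0.52, adjusted p = 0.000171). All 4 held with each library left out. Of the 15 lower genes with the largest fold changes at that level, 5 belong to the resident list. Of the rest, the potassium channel Kcnj15 had 3301, 1846 and 3169 normalized counts at high and 14026, 11905 and 6382 at low MHCII (log2 fold change -1.93 ± 0.27, adjusted p = 0.00026). The polarity protein Patj had 1129, 1312 and 1118 normalized counts at high and 3314, 3344 and 3055 at low MHCII (log2 fold change -1.45 ± 0.19, adjusted p = 0.000119), with no overlap. Vstm2a (log2 fold change -1.30 ± 0.24, adjusted p = 0.00367) and Coro6 (log2 fold change -1.77 ± 0.33, adjusted p = 0.00435) held with each library left out, but Coro6 lost its call with the covariate (adjusted p = 0.0753). Tppp (log2 fold change -1.89 ± 0.42, adjusted p = 0.0146), Grb7 (log2 fold change -1.61 ± 0.34, adjusted p = 0.0101), Slc22a18 (log2 fold change -1.59 ± 0.40, adjusted p = 0.029), Snrnp40 (log2 fold change -1.28 ± 0.32, adjusted p = 0.0306), Wdr46 (log2 fold change -1.25 ± 0.29, adjusted p = 0.019) and Lipf (log2 fold change -1.27 ± 0.34, adjusted p = 0.0407) did not. Tppp lost its call without high 1, high 2 or low 2 (adjusted p as high as 0.106). Grb7 did so without high 2 (adjusted p = 0.0613) and with the covariate (adjusted p = 0.074), and Slc22a18 without high 1, high 2, low 1 or low 3 (adjusted p as high as 0.192) and under 2 of the 14 other settings (as high as 0.218). Snrnp40 did so without high 1, high 3, low 1 or low 2 (adjusted p as high as 0.204) and with the covariate (adjusted p = 0.107). Wdr46 did so without high 1, high 2 or low 1 (adjusted p as high as 0.133) and with the covariate (adjusted p = 0.233) and Lipf without high 2, high 3, low 1, low 2 or low 3 (adjusted p as high as 0.192) and under 3 of the 14 other settings (as high as 0.122).

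Markers of other cell types also differed. Of 17 tested dendritic cell genes, 9 were higher and 0 lower, with a median of 1.81. They included Ccl22, Irf4, Ccr7 and H2-DMb2, given above. Flt3, the growth factor receptor of dendritic cells, had 260, 91.7 and 119 normalized counts at high and 17.9, 0 and 0 at low MHCII (log2 fold change 5.74 ± 1.12, adjusted p = 0.00568). Tcf4 had 2501, 1944 and 1719 normalized counts at high and 989, 863 and 997 at low MHCII (log2 fold change 1.10 ± 0.20, adjusted p = 0.00389). Dpp4 had 587, 220 and 290 normalized counts at high and 53.7, 23.9 and 14.9 at low MHCII (log2 fold change 3.59 ± 0.69, adjusted p = 0.00498). Dpp4 lost its call without high 1 (adjusted p = 0.0507). Fscn1 (log2 fold change 5.72 ± 1.11, adjusted p = 0.00557) lost its call without high 1 (adjusted p = 0.0515) and with the covariate (adjusted p = 0.0874). Kmo (log2 fold change 5.16 ± 1.05, adjusted p = 0.00771) did so without high 2 or low 1 (adjusted p as high as 0.0546) and under 1 of the 14 other settings (as high as 0.0936). Zbtb46, a factor of conventional dendritic cells, was not called (log2 fold change 2.17 ± 0.64, adjusted p = 0.0689), and Xcr1 and Clec9a of the cross-presenting subset had -0.14 ± 1.12 and 1.05 ± 1.18. The summed list was at 66984 to 74569 normalized counts in MHCII-high libraries, 71108 to 80443 in MHCII-low libraries, most of it Sirpa, which was not called. Single libraries left out gave 5 to 9 higher genes, fewest without high 1, and the covariate gave 6. The part of dendritic cells in the results was not tested.

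Of 9 tested B cell genes, 5 were higher and 0 lower, with a median of 3.81. Ebf1, Pax5 and Cd79b passed the filter on low values through MHCII-high libraries alone. Genes that pass this way could hardly be called lower, and the list count and median include them. Ighd, an immunoglobulin heavy chain gene, had 369, 236 and 417 normalized counts at high and 29.1, 28.7 and 13.8 at low MHCII (log2 fold change 3.81 ± 0.74, adjusted p = 0.0052). The B cell factor Ebf1 had 217, 90.9 and 37.4 normalized counts in MHCII-high libraries and 0 in every MHCII-low library (adjusted p = 0.00248), at least 26.2-fold higher when a floor of 3 reads per library stands for 0. Pax5 had 41.7, 70.4 and 30.4 normalized counts at high and 0, 0 and 2.2 at low MHCII (log2 fold change 4.96 ± 1.04, adjusted p = 0.0104). Pax5 lost its call without high 2 (adjusted p = 0.0587) and under 2 of the 14 other settings (as high as 0.0611). Cd79b had 58.1, 24.6 and 99.0 normalized counts at high and 4.5, 0 and 0 at low MHCII (log2 fold change 4.92 ± 1.09, adjusted p = 0.0143). Cd79b lost its call without high 1, high 3, low 2 or low 3 (adjusted p as high as 0.0616) and under 1 of the 14 other settings (as high as 0.0575). Cd79a (log2 fold change 4.47 ± 1.22, adjusted p = 0.0496) did so without any 1 library (adjusted p as high as 0.204) and under 6 of the 14 other settings (as high as 0.167). The list sum was 11405 to 13266 normalized counts in MHCII-high libraries, 12339 to 14095 in MHCII-low libraries, most of it Cd22, which did not pass (log2 fold change -0.38 ± 0.14, adjusted p = 0.145). The covariate left 3 genes of the list. B cells express MHCII too, and their part in the results was not tested.

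Of 13 tested genes of alveolar type 2 cells, which make surfactant, 6 were higher and 0 lower, with a median of 2.03. All 13 had positive values, against 54.5% of all genes tested. Slc34a2, a phosphate transporter, had 3198, 2088 and 1618 normalized counts at high and 781, 288 and 271 at low MHCII (log2 fold change 2.49 ± 0.43, adjusted p = 0.00195). Lyz1, a lysozyme with a close copy in Lyz2, had 3421, 3918 and 3203 normalized counts at high and 917, 589 and 996 at low MHCII (log2 fold change 2.10 ± 0.32, adjusted p = 0.000569). Lyz1 is counted among the higher genes of the monocyte-derived or interstitial list as well. The surfactant protein genes Sftpa1 (log2 fold change 2.02 ± 0.44, adjusted p = 0.0133), Sftpc (log2 fold change 2.03 ± 0.54, adjusted p = 0.0423) and Sftpb (log2 fold change 1.55 ± 0.41, adjusted p = 0.0394) were higher too, as was Cxcl15, given above. Sftpa1 lost its call without high 1, high 2, low 2 or low 3 (adjusted p as high as 0.1). Sftpc did so without high 1, high 2, high 3, low 2 or low 3 (adjusted p as high as 0.19) and under 4 of the 14 other settings (as high as 0.101) and Sftpb without high 1, high 2, low 2 or low 3 (adjusted p as high as 0.207) and under 3 of the 14 other settings (as high as 0.12). The summed list was 16731 to 23472 normalized counts in MHCII-high libraries, 7150 to 10272 in MHCII-low libraries, with no overlap, and the covariate left 7 higher genes. The part of these cells in the results was not tested. The epithelial surface gene Epcam had 481, 256 and 592 normalized counts at high and 506, 291 and 265 at low MHCII and overlapped (log2 fold change 0.30 ± 0.35, adjusted p = 0.745).

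In the T and NK cell list Il7r was higher with 2940, 2429 and 2096 normalized counts at high and 873, 627 and 786 at low MHCII (log2 fold change 1.71 ± 0.30, adjusted p = 0.00219) and Cd2 lower with 6236, 5004 and 5868 normalized counts at high and 11865, 8865 and 9163 at low MHCII (log2 fold change -0.80 ± 0.15, adjusted p = 0.00347), of 12 tested. The T cell receptor gene Trac (-1.27 ± 1.18) and Cd3e (-0.11 ± 1.18) were not called, and both had under 250 normalized counts in every library. Neutrophil (9 tested), airway (12), fibroblast and endothelium (14), red cell and platelet (9), and eosinophil, basophil and mast cell genes (4 tested) had 0 calls with limma, voom, DESeq2 and edgeR. With the replicate block limma called 1 airway gene lower and 1 fibroblast or endothelial gene higher. Of the 48 entries, 3 (6.25%) had an unadjusted p under 0.05, against 16.7% of all genes tested. Ly6g, Elane and Mpo of neutrophils and Prg2 and Epx of eosinophils fell under the filter on low values.

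At 4 weeks the same sort gave 339 higher genes (2.19% of those tested) and 90 lower genes (0.582%). The 2-week contrast took no means from these libraries, but both contrasts came from the same fit and shared its estimate of spread. Genes were also filtered on the 2-week libraries, so the overlap below is not an independent replication. Of the 2-week calls, 234 were also called in the same direction, which is 46.1% of the 2-week and 54.5% of the 4-week calls. Shared were 218 of 403 higher genes (54.1%) and 16 of 105 lower genes (15.2%). The sign at 4 weeks was the same for 386 higher and 103 lower genes. The test of the difference between times called 0 genes with limma (smallest adjusted p 0.1, 874 genes at an unadjusted p under 0.05), 0 with edgeR or voom and 37 with DESeq2. It called 1 gene without MHCII-high replicate 2 of 2 weeks and 3 without MHCII-high replicate 3 of 4 weeks. A call present at 2 weeks alone is therefore not shown to be a change over time.

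Many genes described above passed again at 4 weeks. H2-Aa had a log2 fold change of 5.42 ± 0.33, adjusted p = 1.41e-08, C1qc of 5.97 ± 0.56, adjusted p = 1.26e-06, and Ccr2 of 2.39 ± 0.18, adjusted p = 9.24e-08. Mmp12 reached 2.82 ± 0.29, adjusted p = 4.64e-06, and Mmp14 3.66 ± 0.41, adjusted p = 9.89e-06. Siglecf was again lower at -1.02 ± 0.15, adjusted p = 0.000376, and so were Marco at -1.19 ± 0.22, adjusted p = 0.00295 and Krt19 at -1.27 ± 0.20, adjusted p = 0.000722. Ccl17 (3.06 ± 1.00, adjusted p = 0.12), Cxcl15 (0.25 ± 0.39, adjusted p = 0.822), Ms4a7 (0.63 ± 0.38, adjusted p = 0.462) and Fabp1 (-0.93 ± 0.30, adjusted p = 0.118) were not called at 4 weeks. Spp1 and Fn1, not called at 2 weeks, were higher at 4 weeks, by 1.18 ± 0.22, adjusted p = 0.00333 and 1.28 ± 0.22, adjusted p = 0.00142. No difference between the times passed the test for any of these genes.

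**Figure D5:**
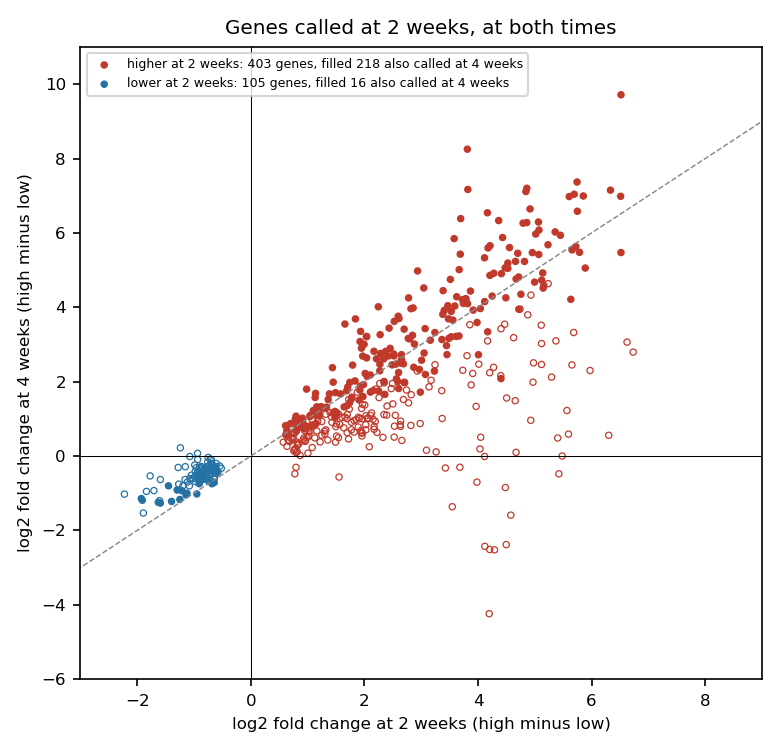
Log2 fold change (MHCII-high minus MHCII-low) at 4 weeks against 2 weeks for the 508 genes called at 2 weeks; filled points were called in the same direction at 4 weeks, and the dashed line marks equal values. Most points share their sign at both times, 386 of 403 higher (red) and 103 of 105 lower (blue) genes.

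Against the control MHCII-low libraries, the 2-week groups stood in different orders by gene. For 184 of the 403 higher genes the control mean lay below both groups, as for H2-Aa and Mmp12, for 207 it lay between them, and for 12 above both. For the 105 lower genes it lay above both groups for 37, between them for 61 and below both for 7. Siglecf was at 6461 and 7034 normalized counts in the controls, like the MHCII-low libraries of 2 weeks, and Marco at 13347 and 9686. With 2 control libraries these orders are descriptions of means with no test.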

How the data were processed

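RNA from sorted SiglecF+ CD11c+ cells was isolated on mRNA beads, amplified with NuGEN Ovation V2 and made into Nextera XT libraries, per the labels' protocols. The submitters' processing notes name STAR, DESeq2 and mm10, with no role or version. The values are a signal that the authors deposited for each gene and library: counts divided by 1 factor per library, as the values themselves show. In all 14 libraries 100.0% of values under 200 reads lay within about 0.05 normalized counts of a whole number of reads. In 1 control library 1 read was worth only 0.39 normalized counts. That library was left out of the edgeR, DESeq2 and voom fits, which used the other 13. In 1 alternative the trend of log2 values with the deposited percent GC of each gene was removed from each library before the fit. Reads carry no molecular identifiers. The labels do not say that strand was kept, so overlapping genes cannot be told apart, and close copies (Lyz1 and Lyz2, Ear1 and Ear2, H2-DMb1 and H2-DMb2) may share reads.

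All 14 libraries in 5 groups entered 1 limma fit (3.58.1, R 4.3.3) on log2(value + 1), with the trend option, and p-values were adjusted by Benjamini-Hochberg over 15451 genes. The filter was 10 normalized counts in 2 of the 6 libraries. Genes with hardly any reads at low MHCII, such as H2-Eb2, Ccl17, Tlr11, Ebf1, Pax5 and Cd79b, passed it through MHCII-high libraries alone. Their fold changes depend on few reads at low MHCII, and list counts and medians include them. edgeR 4.0.16, DESeq2 1.42.0 and limma voom on recovered reads, other scalings, filters and pseudocounts, the replicate block, a GC trend, the mitochondrial ribosomal RNA covariate and single libraries left out were alternatives, 20 in all. The fits were also run on simulated reads with the same spread for all genes and no library effects. That run does not show how they behave with the spread of these libraries. RefSeq promoters are from GRCm38.p6.

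The comparison, the 48 gene lists and the naming rule were chosen with earlier results of these data known. Named were the 15 genes each way with the largest fold changes at a mean log2(CPM + 1) of at least 3, and up to 4 genes per list with the smallest p. Other genes were named after their values were seen. Results of some genes are not reported here.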

Additional observations from a re-analysis of the deposited data

How the results depend on the processing

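Of the 508 genes called at 2 weeks, 508 kept their sign in every alternative that could be run, and 121 higher and 13 lower genes passed in each of them. Of 152 genes followed singly, the 130 called kept their sign in these alternatives, and 5 of the 22 not called changed it in at least 1. B2m (-0.10) ranged from -0.262 to 0.116, with positive values without high 2 or low 1, H2-DMa (0.04) from -0.114 to 0.245, Hmgcs1 (-0.15) from -0.552 to 0.024, Spp1 (0.15) from -0.002 to 0.247 and Trem2 (0.11) from -0.046 to 0.296. With 1 library left out, 204 (without high 2) to 639 (without MHCII-high replicate 3 of 4 weeks) genes were called, 178 to 494 higher and 26 to 145 lower, 133 to 210 also passed at 4 weeks, and 0 to 3 differed between times. DESeq2 called 953 genes, 682 higher and 271 lower, of which 386 also passed at 4 weeks, and 37 differed between times. TMM scaling gave 160 lower genes. Library totals, which shifted the median fold change of all genes by -0.15, gave 252 higher genes, 68.3% of calls. With limma voom 68.4% of calls were higher and 150 genes also passed at 4 weeks. The mitochondrial ribosomal RNA covariate gave 216 calls, 194 higher and 22 lower (89.8% higher), and 152 also passed at 4 weeks. The cause of these differences was not tested. Other settings called 390 genes (no filter) to 696 (the 6 libraries alone).

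The replicate numbers are shared by both levels, but the labels do not say what a number stands for. Deviations from the group mean correlated at 0.135, 0.093 and 0.018 between same-numbered libraries, and not every library correlated best with its own number. With a replicate block 568 genes were called, 444 higher and 124 lower, 262 also passed at 4 weeks, and 0 differed between times. Depth limits the low genes most: 1 read was worth 2.24 normalized counts in low 1, so levels near 0 there rest on single reads.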

Other observations

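The following genes belong to no list above and were chosen after their values were seen. Rasgrp3, a Ras activator related to Rasgrp1, had 1660, 1407 and 1854 normalized counts at high and 213, 129 and 131 at low MHCII (log2 fold change 3.40 ± 0.38, adjusted p = 1.87e-05). Prkcb, protein kinase C beta, had 1370, 1461 and 1370 normalized counts at high and 107, 74.8 and 217 at low MHCII (log2 fold change 3.53 ± 0.42, adjusted p = 4.44e-05). The transcription factor Mef2c had 1861, 2457 and 1675 normalized counts at high and 324, 285 and 308 at low MHCII (log2 fold change 2.69 ± 0.29, adjusted p = 1.35e-05). For these 3 genes every MHCII-high library lay above every MHCII-low library. The membrane protease Adam19 had 1852, 1680 and 1839 normalized counts at high and 134, 159 and 110 at low MHCII (log2 fold change 3.74 ± 0.39, adjusted p = 1.04e-05), and the cytoskeletal protein Gas7 had 4737, 4261 and 5218 normalized counts at high and 559, 491 and 737 at low MHCII (log2 fold change 3.01 ± 0.26, adjusted p = 8.13e-07). The calcium channel subunit Cacna1a had 378, 461 and 368 normalized counts at high and 4.5, 11.1 and 20.9 at low MHCII (log2 fold change 5.15 ± 0.71, adjusted p = 0.000207). All 6 calls held with each library left out.

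The lower genes included the formyl peptide receptors Fpr1 and Fpr2, which sense bacterial and mitochondrial peptides. Fpr1 had 3167, 2820 and 4514 normalized counts at high and 6685, 6866 and 6692 at low MHCII (log2 fold change -0.98 ± 0.19, adjusted p = 0.00478) and held with each library left out. Fpr2 had 2411, 1815 and 2914 normalized counts at high and 5616, 3954 and 3645 at low MHCII (log2 fold change -0.89 ± 0.20, adjusted p = 0.0154). Fpr2 lost its call without high 1, high 2 or low 1 (adjusted p as high as 0.12) and with the covariate (adjusted p = 0.116). The adhesion molecule Mcam had 3921, 4596 and 4416 normalized counts at high and 9619, 8315 and 6959 at low MHCII (log2 fold change -0.94 ± 0.16, adjusted p = 0.00201), and the actin-associated protein Pdlim1 had 1705, 1345 and 1574 normalized counts at high and 3562, 2530 and 3070 at low MHCII (log2 fold change -0.98 ± 0.16, adjusted p = 0.00133). Both held with each library left out.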
